A study of Mus musculus with 2 samples.

Results

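The 10 genes that mark the derivatives of the foregut and pharyngeal endoderm were followed through single cells of mouse embryos. They are Nkx2-1, Pax8, Foxe1, Sftpc, Foxn1, Gcm2, Pax9, Foxa2, Sox2 and Hhex. They were chosen by symbol and are 10 of the 32285 genes in the deposited counts. The cells were eYFP+ cells of the Isl1-Cre lineage, sorted from the dissected upper body of E13.5 embryos, whose tissue is labelled pharyngeal arch. The control group, Isl1-Cre;R26R-eYFP, and the mutant group, Isl1-Cre;R26R-eYFP;Pik3caH1047R, each had 1 library of 3 pooled embryos. Both groups carry Cre driven by Isl1 and a reporter that Cre switches on. The mutant embryos carry in addition an activated form of the PI3K catalytic subunit (H1047R), which Cre switches on in the same cells, on a mixed background. Only cells with an Isl1-expressing ancestor, and that survived dissociation and sorting, could be counted.

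The endoderm of the foregut and pharynx is patterned into organ fields, each set by its own transcription factors. NKX2-1 marks both the lung and the thyroid, which PAX8, FOXE1 and HHEX with NKX2-1 separate from the lung, while surfactant protein C (Sftpc) appears at the lung tips. FOXN1 specifies thymic epithelium, GCM2 parathyroid, PAX9 the pharyngeal pouches and oral epithelium, SOX2 the dorsal foregut, airway and mouth, and FOXA2 endoderm at large.

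A filter kept cells in which over 2000 but under 9000 genes were detected and mitochondrial UMIs (unique molecular identifiers, each a captured transcript) were below 10%. The cells that passed numbered 2783 in the control and 3489 in the mutant library. The endoderm regulators were read in epithelial cells, those with at least 1 UMI of the adhesion genes Epcam and Cdh1 each. These were 137 control cells, 4.92% of the library (95% interval 4.15 to 5.79), with a median of 21588 UMIs. In the mutant library they were 228 cells, 6.53% (5.74 to 7.41), with a median of 19327.5 UMIs. Of these, 121 control and 202 mutant cells lay in the epithelium-like cluster, 1 of 16 clusters. The libraries shared 28 barcodes among all deposited cells, 12 among filtered cells and 0 among epithelial cells. With 1 library per genotype there is no test between genotypes. Every interval covers counting error only, and differences between embryos, dissections or sorts are not in it. Fewer cells of a type and less RNA per cell are given separately below, as shares of cells and as UMIs per cell.

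Facts of the libraries stand beside every comparison that follows. Among epithelial cells, 132 of 137 control cells had RNA of the X-inactivating transcript Xist and none of the Y-linked genes, against 78 of 228 mutant cells. Another 118 mutant cells were male-like, with Y-linked RNA and no Xist UMI, so the mutant pool held embryos of both sexes and the control pool nearly female cells alone. Levels are counts per 1000000 UMIs (CPM), here of the epithelial cells of a library. In epithelial cells, the summed level of the 7 EC markers was 14.4 CPM in the control and 167 CPM in the mutant. That of the 8 mesenchyme markers was 1098 CPM in the control and 154 CPM in the mutant. The 7 cardiomyocyte markers summed to 29.4 CPM in the control and 127 CPM in the mutant. In the epithelial cells of the epithelium-like cluster alone, the EC sum was 9.92 against 26.9 CPM and the mesenchyme sum 289 against 89.8 CPM. The cardiomyocyte sum there was 20.2 against 139 CPM, so it did not come closer. The part of doublets or free RNA in the results was not tested. The part of liver-type and lung mesenchyme cells, given beside the genes they touch, was not tested either.

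Of the 10 regulators, 9 had at least 20 UMIs in epithelial cells of both libraries together. In the mutant library 5 of these were higher than control by over 1.5-fold (Foxe1, Foxn1, Pax9, Sox2 and Hhex), and 4 were lower (Nkx2-1, Pax8, Sftpc and Foxa2). Of all 13634 genes with as many UMIs, 12.7% were higher and 11.5% lower by that fold. The median log2 ratio of mutant over control was 0.84 over the 9 regulators and -0.04 over all of those genes. The 9 ratios ran from -5.11 for Pax8 to 3.06 for Foxn1, so their median does not describe a shift of the set. Hhex is counted as higher here, although its direction depended on the cells read. Pax9 is counted as higher too, although its ratio was under 1.5-fold in epithelial cells without Nkx2-1. The following paragraphs take the lung and thyroid genes first, then Foxa2 and Hhex, and then the oral, thymic and parathyroid genes.

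**Figure D1:**
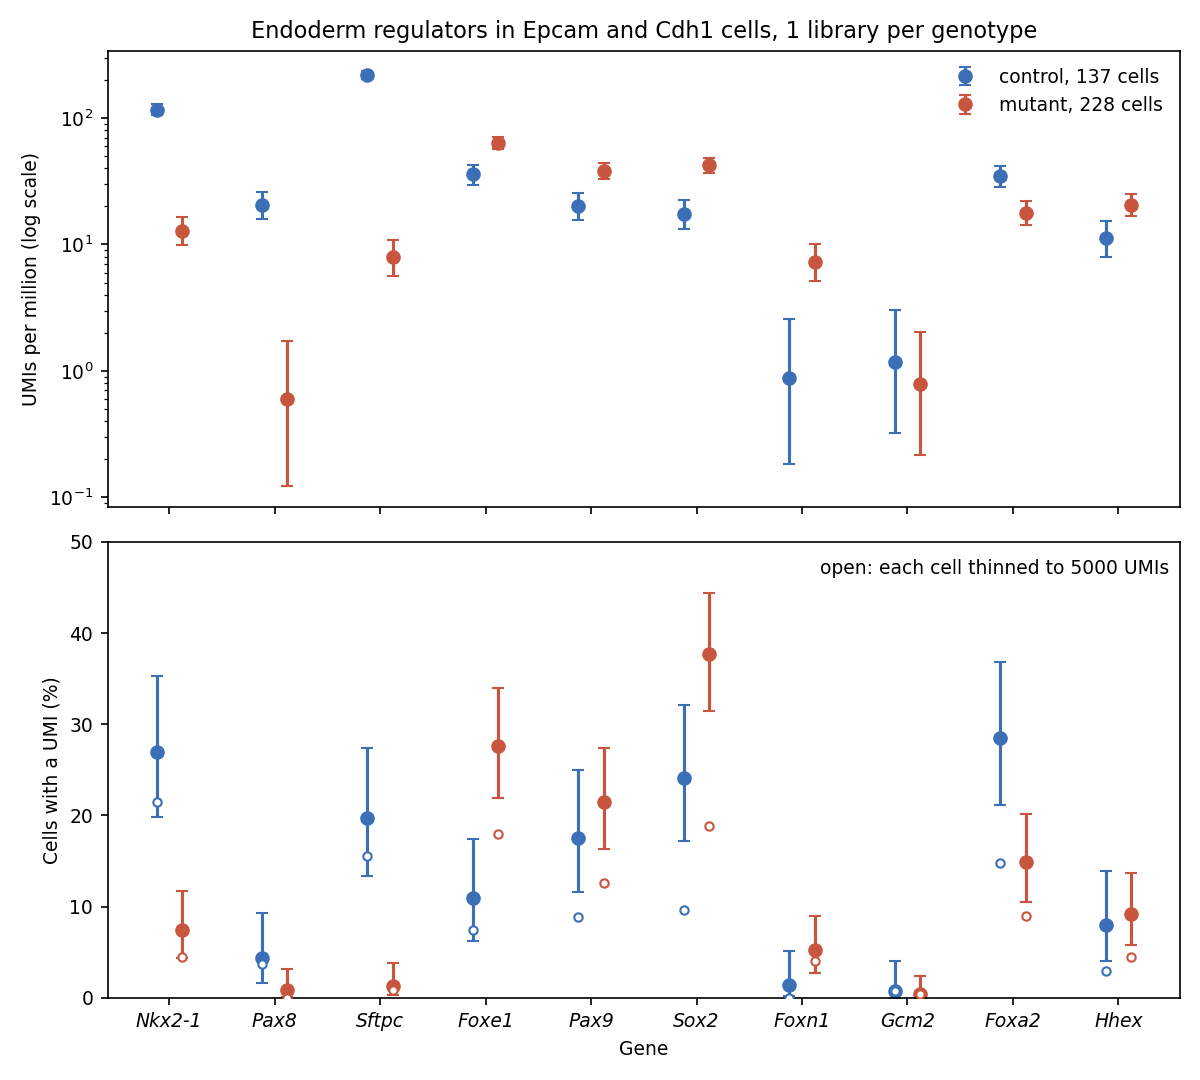
Levels (upper panel, CPM, log scale, exact Poisson intervals) and shares of cells with a UMI (lower panel, percent, exact binomial intervals) of the 10 regulators in epithelial cells of the control (137 cells) and mutant (228 cells) library. Open points give the shares after each cell was thinned to 5000 UMIs. Nkx2-1, Pax8, Sftpc and Foxa2 lie lower in the mutant library, and Foxe1, Pax9, Sox2 and Foxn1 lie higher.

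Nkx2-1 and Pax9 lie near each other in the genome, and they are shown as regulators of one locus that mark different organs. Nkx2-9 lies between them, 74.5 kb from Nkx2-1. Nkx2-1 lies on chr12:56531958-56536908 (minus strand) and Pax9 on chr12:56691767-56712822 (plus strand), 155 kb apart in GRCm38. The 250 bases before the RefSeq start of each gene (GRCm38.p6) are shown for comparison, 5′ to 3′ on the strand of the gene, with every CG dinucleotide in capitals. The first is chr12:56536909-56537158 and the second chr12:56695221-56695470, where the RefSeq start lies inside the GENCODE span of the gene.
Nkx2-1: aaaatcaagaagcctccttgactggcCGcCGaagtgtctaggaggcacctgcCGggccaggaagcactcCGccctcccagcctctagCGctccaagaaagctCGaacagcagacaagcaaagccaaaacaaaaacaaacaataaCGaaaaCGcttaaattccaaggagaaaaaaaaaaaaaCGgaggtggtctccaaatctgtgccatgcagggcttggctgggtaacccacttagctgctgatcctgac
Pax9: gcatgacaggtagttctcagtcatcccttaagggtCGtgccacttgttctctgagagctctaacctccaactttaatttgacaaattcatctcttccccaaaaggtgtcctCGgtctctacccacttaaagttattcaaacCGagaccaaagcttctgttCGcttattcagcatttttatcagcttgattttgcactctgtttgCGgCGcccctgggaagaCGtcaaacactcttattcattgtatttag
The Nkx2-1 window holds 9 CG dinucleotides and the Pax9 window 7, against a median of 6 over 32851 promoter windows of the same length, of which 92.1% hold at least 1. Of the 10 regulators, 8 had a window in this table; Foxe1 and Sftpc had none. In the control library, 37 epithelial cells had a UMI of Nkx2-1 and 24 a UMI of Pax9, and 1 cell had both. In the mutant library 17 cells had Nkx2-1 and 49 had Pax9, and 3 cells had both. Pax9 was thus in 2.70% (0.0684 to 14.2) of control Nkx2-1 cells, against 17.5% of all control epithelial cells. For mutant cells these shares were 17.6% (3.80 to 43.4) and 21.5%, which the few cells do not separate.

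Nkx2-1, the homeodomain factor of lung, thyroid and ventral forebrain, had 398 UMIs in control and 65 UMIs in mutant epithelial cells. These are 117 CPM (106 to 129) and 12.9 CPM (9.93 to 16.4), a log2 ratio of -3.18 (-3.58 to -2.80), or 9.08-fold lower. The share of epithelial cells with a UMI was 27.0% (19.8 to 35.3) in the control and 7.46% (4.40 to 11.7) in the mutant library. When 5000 UMIs were drawn from each cell, leaving aside the 2 control and 5 mutant cells that had fewer, the shares became 21.5% and 4.48%. Cells with the gene also held less of it, a median of 9 UMIs in the control and 2 UMIs in the mutant library. These medians were not scaled to depth. The cells also differed in kind, as 24 of the 37 control and 3 of the 17 mutant cells had Sftpc. As a background, 2 of 889 control and 2 of 843 mutant branchial muscle-like cells (medians 26389 and 22289 UMIs) had an Nkx2-1 UMI, 0.225% and 0.237%. Both the share of Nkx2-1 cells and the median UMIs in them were thus lower in the mutant library, the latter in cells not matched by type.

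Sftpc, surfactant protein C of the distal lung (chr14:70520949-70524081), differed more. It had 742 UMIs in 27 control cells and 40 UMIs in 3 mutant cells. The levels were 218 CPM (202 to 234) and 7.92 CPM (5.66 to 10.8), a log2 ratio of -4.78 (-5.28 to -4.32). The shares of cells were 19.7% (13.4 to 27.4) and 1.32% (0.272 to 3.80), and 15.6% and 0.897% after thinning. Sftpc was also read in 14 of 889 control branchial muscle-like cells (1.57%), which should lack it, with at most 2 UMIs a cell. In 3 of 100 control epithelial cells without Nkx2-1 (3%, 0.623 to 8.52) it had 1 UMI each. The UMIs per cell were no more than in this background, and the interval of the share includes its 1.57%.

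Nearly all cells with Sftpc also had Nkx2-1. In the control library 24 of the 27 Sftpc cells had Nkx2-1, 88.9%, and in the mutant library all 3 did. Read the other way, 24 of 37 control Nkx2-1 cells (64.9%, 47.5 to 79.8) and 3 of 17 mutant Nkx2-1 cells (17.6%, 3.80 to 43.4) had Sftpc. In the 24 control cells with both and no Pax8, Nkx2-1 ranged from 1 to 30 UMIs and Sftpc from 1 to 182 UMIs. The 3 mutant cells had 2, 5 and 8 UMIs of Nkx2-1 and 12, 14 and 14 UMIs of Sftpc. These cells made up 17.5% (11.6 to 24.9) of control and 1.32% (0.272 to 3.80) of mutant epithelial cells, or 0.862% and 0.0860% of all filtered cells.

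The Nkx2-1 and Sftpc cells carried other genes of the distal lung that were not used to choose them. Of the 10 lung epithelium markers 8 were detected in the 24 control cells, led by Etv5 (405 UMIs in 24 cells), an effector of FGF signalling, Bex4 (357 UMIs in 23 cells) and the tight junction gene Cldn18 (166 UMIs in 21 cells). The 3 mutant cells had 5 of the 10, with 59 UMIs of Bex4, 27 UMIs of Etv5 and 2 UMIs of Cldn18. Bex4 is less specific, with 337 UMIs in 76 of the 101 mutant cells that had Pax9, Foxe1 or Sox2. The tip regulators Id2 (433 UMIs in 23 cells) and Sox9 (159 UMIs in 23 cells) were in nearly all of the 24 control cells. Both are less specific too, with Id2 in 115 and Sox9 in 79 of all 137 control epithelial cells (1320 and 387 UMIs). Sox2, which marks the proximal airway in the lung, was in 0 of the 24. The 10 lung epithelium markers summed to 1375 CPM in the 24 control cells and 1057 CPM in the 3 mutant cells. Bex4 made up 59 of these 91 mutant UMIs. The control cells thus carried a distal lung set of genes. The 3 mutant cells carried some of these genes and are too few to tell whether others were missing.

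Lung mesenchyme differed between the libraries too. The lung mesenchyme-like cluster, in which all 5 lung mesenchyme markers were raised and whose leading genes were Adh1 and Wnt2, held 346 control cells (12.4%) and 68 mutant cells (1.95%). Over all filtered cells the summed level of these 5 markers was 142 CPM in the control and 57.8 CPM in the mutant. The sex of the cells stands beside these values. Of the 17 mutant Nkx2-1 epithelial cells, 14 were male-like, 0 were female-like and 3 were unassigned, while 78 female-like and 118 male-like epithelial cells were examined. An observed 0 of 78 cells allows a share of cells with a UMI of up to 3.85%, and the share in male-like mutant cells was 11.9% (6.64 to 19.1). The lung mesenchyme-like cluster of the mutant library held 59 male-like and 4 female-like cells, although the library as a whole held 1861 and 1173. In the control library, 36 of the 37 Nkx2-1 cells were female-like. Of the 17 mutant cells only 3 had Sftpc, so most of them were not marked as lung by these genes. Male-like and female-like cells come from different embryos of the pool, and the part of the embryo or its dissection in these values was not tested.

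**Figure D2:**
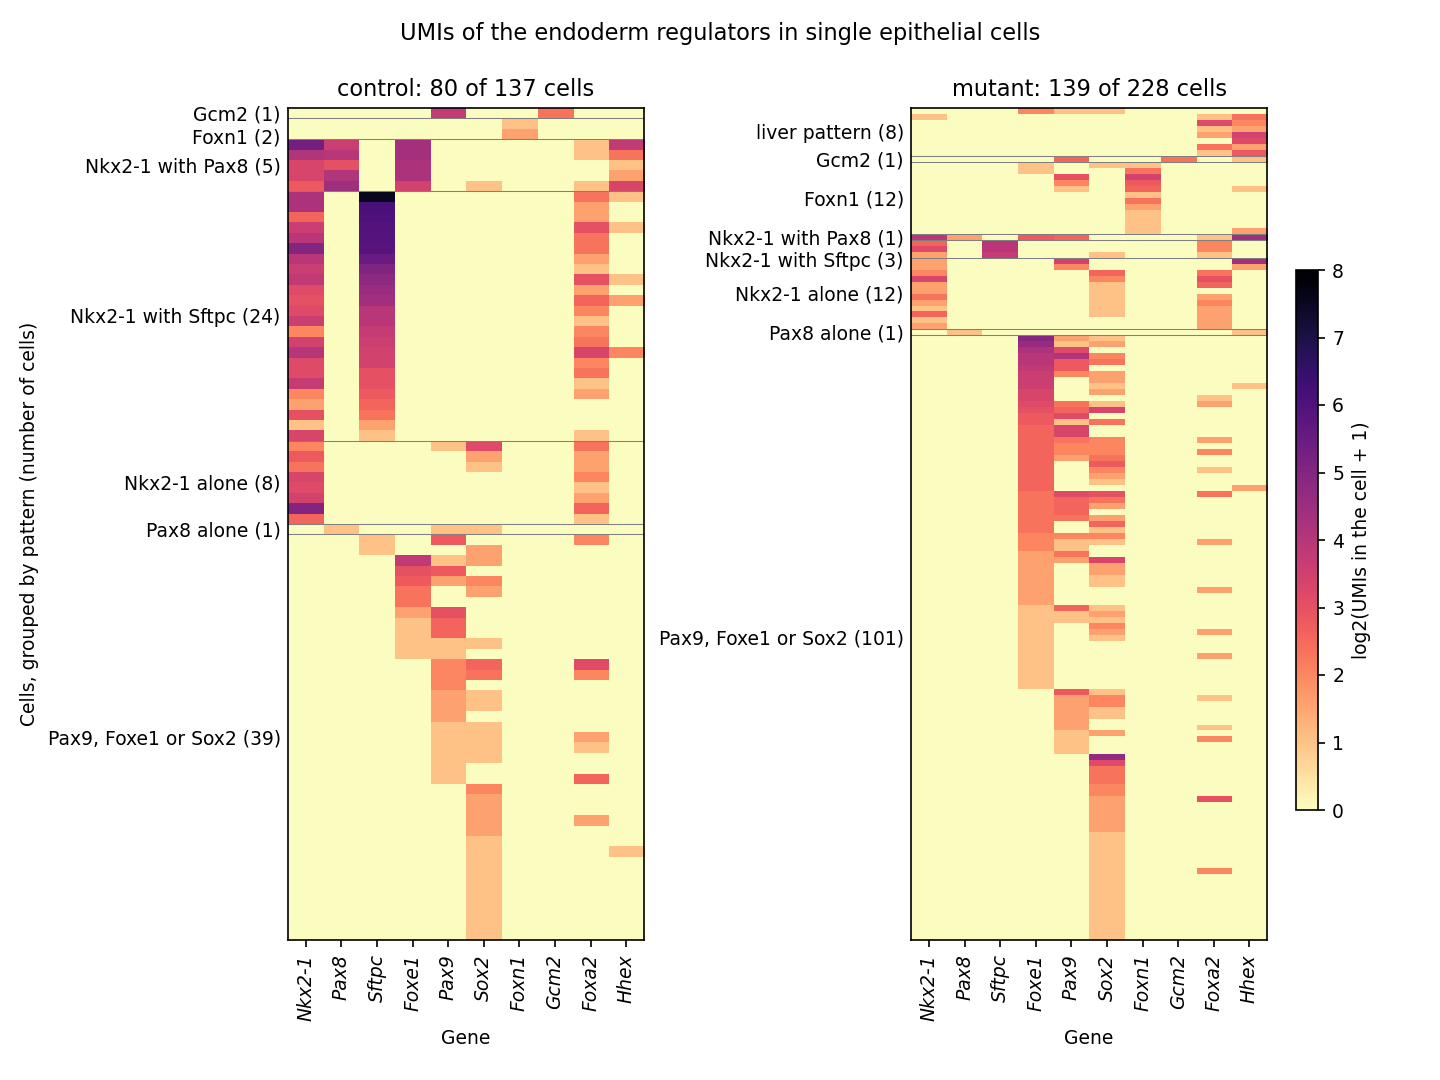
UMIs of the 10 regulators (columns) in each epithelial cell (rows) that falls into 1 of 8 pattern groups, as log2(UMIs + 1), for the control (80 of 137 cells) and mutant library (139 of 228 cells). Lines separate the groups, with the number of cells in each; the control panel has blocks of 24 cells with Sftpc and 5 with Pax8, and the mutant panel a block of 101 cells with Pax9, Foxe1 or Sox2.

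Pax8, a paired-box factor of the thyroid, kidney, ear and neural tube (chr2:24420560-24475599), was nearly absent from mutant epithelial cells. It had 70 UMIs in 6 control cells and 3 UMIs in 2 mutant cells, which are 20.6 CPM (16 to 26) and 0.594 CPM (0.122 to 1.74). The log2 ratio was -5.11 (-7.43 to -3.51) in the mutant library, and it rests on few cells. Of the 6 control Pax8 cells 5 had Nkx2-1, 5 had Foxe1 and 5 had Hhex.

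Nkx2-1 with Pax8 is the pair that marks thyroid, and few cells had both. There were 5 such cells, 3.65% (1.2 to 8.31) of control epithelial cells. They held 6, 9, 9, 16 and 38 UMIs of Nkx2-1, and between 7 and 21 UMIs of Pax8. All 5 had Foxe1, with 10 to 19 UMIs, and all 5 had Hhex, with 1 to 13 UMIs, while 0 of the 5 had Sftpc or Pax9. Of the 8 thyroid markers 6 were detected, led by Iyd (12 UMIs in 4 cells), which recycles iodide, thyroglobulin (Tg, 8 UMIs in 3 cells) and the thyrotropin receptor (Tshr, 7 UMIs in 3 cells). The same 5 cells held 235 UMIs of mesenchyme markers (1079 CPM), led by Col1a1 (68 UMIs in 2 cells) and Col3a1 (59 UMIs in 2 cells), against 36 UMIs of thyroid markers (165 CPM). They also held 68 UMIs of Scgb3a2 in 1 cell and 25 UMIs of Trp63 in 1 cell, and 1 of the 5 had a doublet score of 0.182. The part of doublets or free RNA in these sums was not tested. The mutant library had 1 cell with both, 0.439% (0.0111 to 2.42), with 14 UMIs of Nkx2-1, 2 of Pax8, 6 of Foxe1, 21 of Hhex and 5 of Pax9. That cell had 15963 UMIs in all and 0 UMIs of the 8 thyroid markers, which in 1 cell says little. All 5 control cells were female-like and the mutant cell male-like, and after thinning no mutant cell held both genes. Nkx2-1, Pax8, Foxe1 and Hhex were thus together in 5 control cells and 1 mutant cell.

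Some Nkx2-1 cells had neither Pax8 nor Sftpc, and these were 8 control cells, 5.84% (2.55 to 11.2), and 12 mutant cells, 5.26% (2.75 to 9.01). In them Nkx2-1 ranged from 3 to 31 UMIs in the control and from 1 to 9 UMIs in the mutant library. Foxa2 was in 8 of 8 control and 9 of 12 mutant cells, and Sox2 in 3 of 8 and 8 of 12. In the control group, 28 UMIs of Cldn18 were in 6 cells and 22 UMIs of the airway secretory gene Scgb3a2 in 2 cells. In the mutant group 3 UMIs of Cldn18 were in 3 cells, and Scgb3a2 had 0 UMIs. The mesenchyme markers summed to 30.4 CPM in the control cells and 392 CPM in the mutant cells, of which Col1a2 had 30 UMIs in 5 cells and Col1a1 27 UMIs in 2 cells. The epithelium-like cluster held 8 of the 8 control and 10 of the 12 mutant cells. The intervals of the shares overlap, while Nkx2-1 and Cldn18 had fewer UMIs a cell in the mutant group. These UMIs per cell were not compared within 1 type of cell.

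Outside the epithelium, the same factors were read in neurons, and there the ratios of the levels ran the other way, a difference that was not tested. The neuron-like clusters held 192 control and 465 mutant cells. Nkx2-1 had 109 UMIs in 29 of the control cells and 306 UMIs in 52 of the mutant cells, which are 27.6 CPM (22.7 to 33.3) and 39.7 CPM (35.4 to 44.4). The log2 ratio was 0.52 (0.21 to 0.85). The share of neuron-like cells with an Nkx2-1 UMI did not follow the level, with 15.1% (10.4 to 21.0) in the control and 11.2% (8.47 to 14.4) in the mutant library, so no direction is read from the level alone. These cells had the neuronal genes Tubb3 (in 29 of 29 and 50 of 52 cells) and Elavl4 (24 and 45 cells), and Epcam in 2 and 3 cells. Sox2 was in 13 of the 29 and 30 of the 52, Foxa2 in 0 and 0, and Pax8 in 0 and 0. Pax8 was in other neurons, with 7 UMIs in 1 control cell and 118 UMIs in 32 mutant cells, 1.77 and 15.3 CPM, a log2 ratio of 3.11 (2.02 to 4.46), and 0.521% and 6.88% of the cells. Of all Nkx2-1 UMIs, 19.8% lay in neuron-like cells in the control library and 72.3% in the mutant library. The factor of lung and thyroid was thus mostly epithelial in the control library and mostly neuronal in the mutant library, which held more neuron-like cells. Neuron-like cells of the mutant library were 247 female-like and 163 male-like, the reverse of its lung mesenchyme-like cells.

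**Figure D3:**
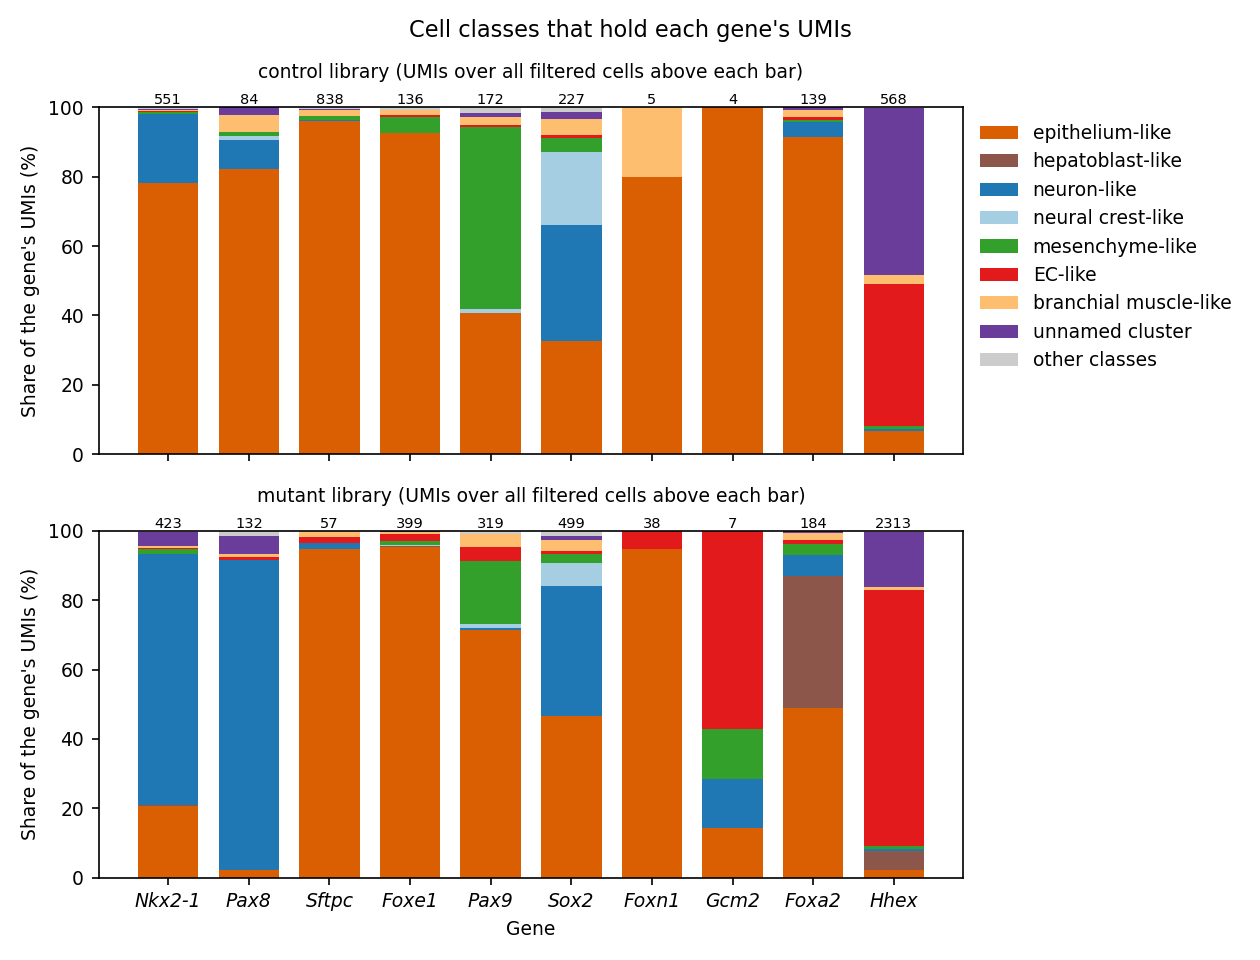
Share of each regulator's UMIs (percent, bars sum to 100) that lies in each class of cells, for the control (upper) and mutant library (lower), with the number of UMIs above each bar. Nkx2-1 and Pax8 lie in epithelium-like cells in the control and in neuron-like cells in the mutant library; Hhex lies mostly in EC-like cells and in an unnamed cluster that mixes macrophage and globin genes.

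Foxa2, a forkhead factor that opens chromatin in endoderm (chr2:148042877-148046969), followed Nkx2-1. It had 118 UMIs in 39 control cells and 90 UMIs in 34 mutant cells, 34.6 CPM (28.7 to 41.5) and 17.8 CPM (14.3 to 21.9). The log2 ratio was -0.96 (-1.37 to -0.55), and the shares of cells were 28.5% and 14.9%, or 14.8% and 8.97% after thinning. Foxa2 was in 32 of 37 control Nkx2-1 cells (86.5%) and in 14 of 17 mutant Nkx2-1 cells (82.4%). Those cells held 79.7% of its epithelial UMIs in the control and 42.2% in the mutant library. In epithelial cells without Nkx2-1, Foxa2 was at 10.5 CPM in the control and 11.1 CPM in the mutant, a log2 ratio of 0.077. Most of the difference in its level thus lay in the Nkx2-1 cells. Of the 34 mutant Foxa2 cells, 6 with 17 UMIs had the liver pattern, and 1 of these 6 also had an Nkx2-1 UMI. Part of the mutant level without Nkx2-1 cells therefore came from a pattern that no control cell had. A ratio that leaves out both sets of cells was not computed. Foxa2 thus went with Nkx2-1 in both libraries.

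Hhex, a homeobox factor of the thyroid and liver buds and of the endothelium (chr19:37434810-37440731), had 38 UMIs in 11 control and 104 UMIs in 21 mutant epithelial cells. The levels were 11.2 CPM (7.89 to 15.3) and 20.6 CPM (16.8 to 24.9), a log2 ratio of 0.88 (0.33 to 1.46). The cells behind these UMIs differed, and the direction depends on them. In the control library 11 of 11 Hhex cells lay in the epithelium-like cluster and 10 had Nkx2-1. In the mutant library 7 lay in the epithelium-like cluster (47 UMIs), 7 in the hepatoblast-like cluster (35 UMIs) and 7 in the EC-like cluster (22 UMIs). Within the epithelium-like cluster the log2 ratio was -0.24, and with at least 2 UMIs each of Epcam and Cdh1 it was -0.91. Most Hhex RNA of the libraries was not epithelial: EC-like cells had 233 UMIs in 92 of 146 control cells and 1705 UMIs in 481 of 700 mutant cells, 73.1 CPM (64.0 to 83.2) and 122 CPM (116 to 128). The log2 ratio in EC-like cells was 0.74 (0.54 to 0.94). No direction can be given for Hhex in epithelium, and in EC-like cells it was higher in the mutant library.

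The liver pattern, with the summed UMIs of Afp, Alb, Apoa1, Apoa2 and Ttr at 1% or more of a cell, was found in 0 control and 8 mutant epithelial cells, 3.51% (1.53 to 6.80). An observed 0 of 137 allows a share of up to 2.19%. Hhex was in 7 of the 8 cells with 2 to 10 UMIs and Foxa2 in 6 with 1 to 8 UMIs, and Hnf4a, a hepatocyte regulator, had 42 UMIs in 7 cells. The cell without Hhex also lacked Foxa2, had 6165 UMIs in all and lay just past the cut, at 1.15%. It had 3 UMIs of Foxe1, 1 of Pax9 and 1 of Sox2 and lay in the epithelium-like cluster, so its genes do not mark it as liver. The hepatoblast-like cluster as a whole held 0 control and 46 mutant cells, with Foxa2 in 30 and Hhex in 39. The dissection is described as lying above the liver, and cells of this pattern came from the mutant library alone.

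Foxe1, the forkhead factor of the thyroid bud and of oral and palatal epithelium (chr4:46343609-46346412), was higher in the mutant library. It had 122 UMIs in 15 control cells and 323 UMIs in 63 mutant cells, 35.8 CPM (29.7 to 42.8) and 63.9 CPM (57.1 to 71.3), a log2 ratio of 0.84 (0.53 to 1.15). The shares of cells were 10.9% (6.26 to 17.4) and 27.6% (21.9 to 33.9), and 7.41% and 17.9% after thinning. The 5 thyroid-pattern cells held 82 of the 122 control UMIs. Without Nkx2-1 cells, Foxe1 was in 10 of 100 control cells with 40 UMIs and in 62 of 211 mutant cells with 317 UMIs, 17.5 and 67.5 CPM, a log2 ratio of 1.95. Of the Foxe1 cells, 5 of 15 had Nkx2-1 in the control library (33.3%, 11.8 to 61.6) and 1 of 63 in the mutant library (1.59%, 0.0402 to 8.53). The gene overlaps Gm12446 on the opposite strand, whose level was the most like it across clusters.

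Pax9, the paired-box factor of pharyngeal pouches, palate and teeth, had 69 UMIs in 24 control cells and 192 UMIs in 49 mutant cells. These are 20.3 CPM (15.8 to 25.6) and 38 CPM (32.8 to 43.8), a log2 ratio of 0.91 (0.50 to 1.33). The shares of cells were closer, 17.5% (11.6 to 24.9) and 21.5% (16.3 to 27.4), with intervals that overlap, and 8.89% and 12.6% after thinning. In epithelial cells without Nkx2-1 the log2 ratio was 0.32. Pax9 was also read in mesenchyme-like cells, with 90 UMIs in 38 control and 58 UMIs in 30 mutant cells, 7.89 and 5.99 CPM, a log2 ratio of -0.40 (-0.90 to 0.09). Over all epithelial cells the level of Pax9 was thus higher in the mutant library, while without Nkx2-1 cells no direction is read. The share of epithelial cells with Pax9 could not be told apart between the libraries.

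Sox2, the SRY-box factor of the foregut, mouth and neural progenitors (chr3:34650405-34652461), was in more epithelial cells of the mutant than any other of the 10 regulators. It had 59 UMIs in 33 control cells and 214 UMIs in 86 mutant cells, 17.3 CPM (13.2 to 22.3) and 42.4 CPM (36.9 to 48.4), a log2 ratio of 1.29 (0.87 to 1.73). The shares of cells were 24.1% (17.2 to 32.1) and 37.7% (31.4 to 44.4), and 9.63% and 18.8% after thinning. Without Nkx2-1 cells, Sox2 was in 29 of 100 control (29%, 20.4 to 38.9) and 77 of 211 mutant cells (36.5%, 30.0 to 43.4). These intervals overlap, and the levels there were 20.6 and 42.4 CPM. Many cells held little of it, 1 UMI in 20 of the 33 control and 41 of the 86 mutant cells. Neuron-like cells held 76 UMIs in 32 control and 187 UMIs in 87 mutant cells, at 19.2 and 24.3 CPM, a log2 ratio of 0.33 (-0.06 to 0.74). Neural crest-like cells had 50.6 CPM in the control and 72.7 CPM in the mutant, from 54 and 25 cells. Sox2 was thus shared by epithelium, neurons and neural crest, and its interval lay above 0 in epithelial cells and spanned 0 in neuron-like cells, a contrast that was not tested.

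Foxe1, Pax9 and Sox2, the oral and pharyngeal factors, were often found in the same cells. In the mutant library, 32 of 63 Foxe1 cells had Pax9 (50.8%, 37.9 to 63.6) and 40 had Sox2 (63.5%, 50.4 to 75.3); Pax9 was in 21.5% and Sox2 in 37.7% of all mutant epithelial cells. In the control library 8 of 15 Foxe1 cells had Pax9 (53.3%, 26.6 to 78.7) and 5 had Sox2 (33.3%, 11.8 to 61.6). Among all control epithelial cells these shares were 17.5% and 24.1%, so the interval for Sox2 includes the share of all cells. Pax9 with Sox2 was in 13 of 24 control and 29 of 49 mutant Pax9 cells, 54.2% and 59.2%. Cells with any of the 3 and none of Nkx2-1, Pax8, Foxn1, Gcm2 or the liver pattern were 39 in the control, 28.5% (21.1 to 36.8), and 101 in the mutant library, 44.3% (37.7 to 51.0). Nkx2-1 cells, which cannot fall into this group, were 27.0% of control and 7.46% of mutant epithelial cells. Set against the epithelial cells without Nkx2-1, the group was 39 of 100 control and 101 of 211 mutant cells. These shares lie closer together than those of all epithelial cells, and no interval was computed for them. Foxe1 was in 10 of the 39 and 59 of the 101, Pax9 in 21 and 41, and Sox2 in 28 and 75. All of these are shares of detection, which rise with depth. The same group was 17.8% of control and 31.4% of mutant epithelial cells after thinning.

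**Figure D4:**
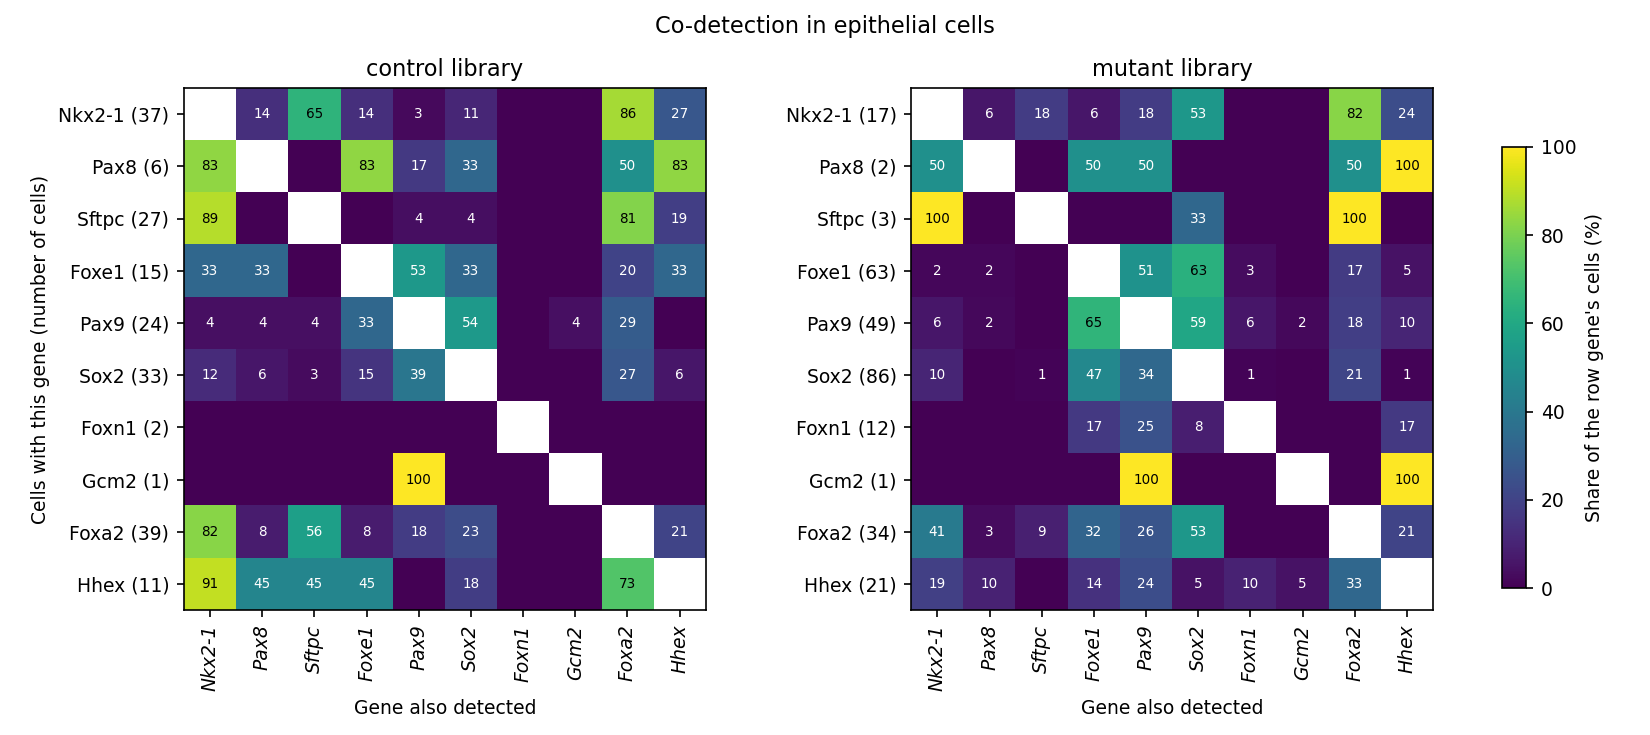
Share (percent, colour and printed value) of the epithelial cells with the row gene that also had the column gene, with the number of cells in brackets, for the control (left) and mutant library (right). Nkx2-1 goes with Foxa2 in both libraries and with Sftpc mostly in the control (65 and 18). Pax9 goes with Foxe1 and with Sox2 in both libraries, and Foxe1 goes with Sox2 in the mutant library. The few control Foxe1 cells do not separate their share with Sox2 from that of all control cells.

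These cells carried genes of oral and stratifying epithelium. Of the 8 stratifying markers 7 were detected in each library, led in the control cells by Krt5 (497 UMIs), Krt15 (459 UMIs) and Krt14 (332 UMIs), and in the mutant cells by Krt15 (1236 UMIs), Krt5 (734 UMIs) and Trp63 (455 UMIs). All 6 dental and oral ectoderm markers were detected in both, with Pitx1 in 22 control and 66 mutant cells. The sums in control and mutant cells were 1670.4 and 1299 CPM for stratifying and 359 and 436 CPM for dental markers. Epithelial cells in no pattern group (57 control and 89 mutant) had 1920 and 3410 CPM of stratifying and 353 and 280 CPM of dental markers. The stratifying markers were thus not particular to the group with Pax9, Foxe1 or Sox2. The group also held other ectoderm genes, and 24 UMIs of the pituitary and eye gene Six6 came from 2 control cells and 87 UMIs from 10 mutant cells. In the control group 164 UMIs of the otic gene Oc90 came from 2 cells. Markers of other cell types differed between the libraries within this group. Mesenchyme markers summed to 1213 CPM in the control and 185 CPM in the mutant, neuron markers to 726 and 106 CPM, and branchial muscle markers to 154 and 581 CPM. Their part in the shares and levels of the group was not tested. Most cells of the group had Pitx1, and a few had genes of other ectoderm.

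Foxn1, the forkhead factor of thymic epithelium that is also made in skin epithelium (chr11:78357577-78386558), had 3 UMIs in 2 control cells and 37 UMIs in 12 mutant cells. These are 0.881 CPM (0.182 to 2.57) and 7.32 CPM (5.16 to 10.1), a log2 ratio of 3.06 (1.40 to 5.40). The shares of cells were 1.46% (0.177 to 5.17) and 5.26% (2.75 to 9.01), whose intervals overlap, and 0% and 4.04% after thinning. Among branchial muscle-like cells, which should lack it, Foxn1 was in 1 of 889 control cells (0.112%, median 26389 UMIs) and 0 of 843 mutant cells, which allows a share of up to 0.356%. At least 2 UMIs were in 1 control and 6 mutant cells. The 12 mutant cells held 7 of 8 thymus markers, led by Ctsl (206 UMIs in 11 cells), which is made by many tissues, the chemokine Ccl25 (164 UMIs in 6 cells) and the thymic protease Prss16 (33 UMIs in 4 cells). Pax1, a pouch regulator, had 103 UMIs in 4 of them, and Pax9 11 UMIs in 3. They also held 830 UMIs of Krt5 in 8 cells and 605 UMIs of Krt14 in 8 cells. Of the 12, 6 were female-like, 5 male-like and 1 unassigned, so they came from embryos of both sexes. The 12 cells also held 389 UMIs of periderm markers (1432 CPM) and 172 UMIs of EC markers (633 CPM), with Emcn (53 UMIs) and Plvap (42 UMIs) in 1 cell each. Of the 12 cells, 6 rest on 1 UMI of Foxn1, among them 1 with a doublet score of 0.213. The part of doublets in these sums was not tested.

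Gcm2, the regulator of the parathyroid (chr13:41101427-41111035), was in 1 epithelial cell of each library, with 4 UMIs in both. Among all filtered cells it had 4 UMIs in 1 control cell and 7 UMIs in 4 mutant cells, of which the other 3 had 1 UMI each and lay in the epithelium-like, mesenchyme-like and neuron-like classes. The log2 ratio in epithelial cells was -0.57 (-2.99 to 1.86), which shows no direction. Both epithelial cells had Pax9, with 12 UMIs in the control and 5 in the mutant cell. The control cell held 6 of 6 parathyroid markers, among them parathyroid hormone (Pth, 198 UMIs) and chromogranin A (Chga, 80 UMIs). The mutant cell had 2 UMIs of Pth and 8 of Tbx1, lay in the EC-like cluster, and had a doublet score of 0.138, against 0.0806 in the control cell. Over all filtered cells Pth had 198 UMIs in the control and 67 UMIs in the mutant library, of which 198 and 4 were in epithelial cells. The cells that held the other mutant Pth UMIs were not examined.

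**Figure D5:**
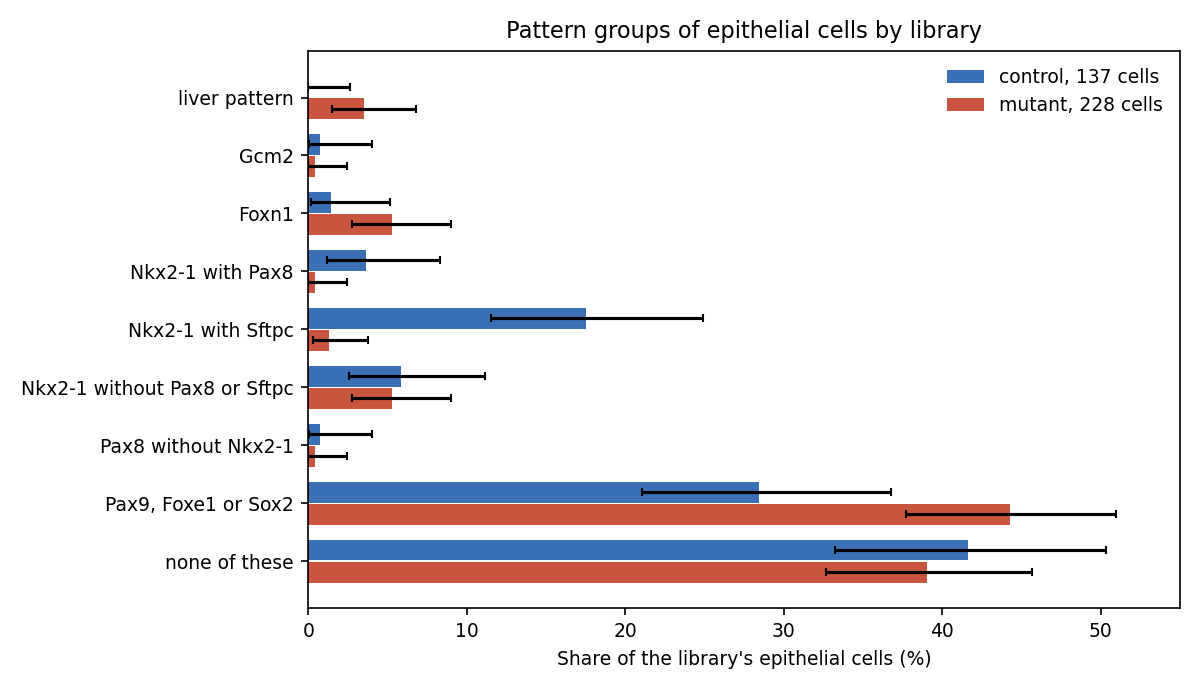
Share (percent) of the epithelial cells of each library in 9 exclusive pattern groups, with exact binomial 95% intervals, for 137 control and 228 mutant cells. The Nkx2-1 with Sftpc group is 17.5% of control and 1.32% of mutant cells, and the group with Pax9, Foxe1 or Sox2 28.5% and 44.3%.

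A list of 34 other endoderm regulators was read in the same cells. Of these, 29 had at least 20 UMIs, and in the mutant library 6 were higher and 9 lower by over 1.5-fold, against 12.7% and 11.5% of all genes. The higher ones were led by Pax1 of the pharyngeal pouches (9 and 207 UMIs in control and mutant, log2 ratio 3.95), the cardiac and pharyngeal factor Nkx2-5 (1 and 19 UMIs, 3.68) and the stomach factor Barx1 (3 and 17 UMIs, 1.93). The part of cardiomyocyte RNA in the Nkx2-5 count was not tested. Hnf4a of the liver had 0 and 43 UMIs, 42 of them in the liver-pattern cells. Among the lower ones were Etv5 of the lung tip (528 and 88 UMIs, -3.15), Foxp2 (1683 and 396 UMIs, -2.66) and Irx1 (369 and 115 UMIs, -2.25). In the 24 control cells with Nkx2-1 and Sftpc alone, Etv5 had 405, Foxp2 1330 and Irx1 218 of these UMIs. Among control epithelial cells each of these 3 was thus read mostly in lung-pattern cells. Over all filtered control cells Etv5 had 2204 UMIs, most of them outside the epithelial cells.

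The regulators were then compared across 38 sums of cells, each a cluster or epithelial sub-cluster of 1 library with at least 20 cells. For each regulator the genes with the highest Pearson correlation are given as a description; sums of 1 library share its depth, and the sub-clusters are small. Nkx2-1 was most like Sfta3-ps (r = 0.92), which lies 2.53 kb away on the same strand, then Sftpc (0.81) and Cldn18 (0.81). Sftpc was most like Cldn18 (0.98), Sfta2 (0.89) and Mia (0.86). Foxa2 was most like its neighbour 9030622O22Rik (0.96), Foxa1 (0.88) and Myo5c (0.82). Sox2 was most like Sox2ot (0.90), whose span contains it on the same strand, and Pax9 most like Foxe1 (0.81), Adamts18 (0.81) and Pax1 (0.80). Foxe1 was most like Gm12446 (0.95), Mir205hg (0.93) and Fermt1 (0.92), Pax8 most like Nkx2-1 (0.68), and Hhex most like 5033406O09Rik (0.79). Neighbouring and overlapping transcripts head the lists of 4 regulators.

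Unsupervised sub-clusters of the epithelial cells gave a coarser picture than the genes. Of 8 sub-clusters, 1 led by Foxe1, F3 and Fxyd3 held 8 control and 51 mutant Foxe1 cells, out of 34 and 80 cells. Another, led by Alb, Afp and Trf, joined 27 control cells, of which 25 had Nkx2-1 and 21 Sftpc, with 7 mutant cells of which 1 had Nkx2-1 and 0 had Sftpc. Most mutant Nkx2-1 cells lay in another, led by Tectb, Oc90 and Myog (14 of its 33 mutant cells). Control lung-pattern cells and mutant liver-pattern cells thus shared a sub-cluster after integration, whose part in this was not tested, and no sub-cluster was named.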

How the data were processed

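Single-cell transcripts were read from their 5′ ends in 1 library of 3 pooled embryos per genotype. The authors aligned the reads and counted UMIs with Cell Ranger 7.1.0 on mm10; the deposited matrices hold raw UMI counts. The annotation release and the treatment of intronic reads are not given in the sources used here. Cells in which over 2000 but under 9000 genes were detected, with mitochondrial UMIs below 10%, were kept (63153191 control and 69717583 mutant UMIs). They were integrated and clustered with Seurat 5.3.0 in R 4.3.3, leaving out the regulators, with 30 components; resolution 0.3 gave 16 clusters, nearest to the 15 sought. Scrublet (scanpy 1.11.5) marked 0 control and 1 mutant cell at its own threshold, so it had not worked as a filter, and doublets stayed in except in an alternative that removed the 172 and 235 highest scores. Counts summed per library were scaled to CPM, with exact Poisson, binomial and Clopper-Pearson intervals (scipy 1.17.1, Python 3.11.15). The share that an observed 0 allows was instead taken as 3 counts over the number of cells. This is lower than the upper end of the Clopper-Pearson interval, which for 0 of 78 cells was 4.62%. edgeR 4.0.16 gave TMM factors as an alternative. No test between genotypes was made. The steps were tested on simulated data. All 10 regulators are named; from 34 others the 4 with the highest and lowest ratios, from each marker list the 3 with most UMIs where described, and the 3 most similar genes. Some genes that this rule would name are not reported here. Other markers and cells singled out were chosen after their values were seen. The members and lists were chosen with earlier results of these data known. Positions are those of GENCODE M21 on GRCm38.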

Additional observations from a re-analysis of the deposited data

Results flagged for a closer look

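The ratio of mutant over control ran in opposite directions in neuron-like and epithelium-like cells for 2 regulators. For Nkx2-1 the log2 ratio was 0.52 in neuron-like and -2.70 in epithelium-like cells. For Pax8 it was 3.11 in neuron-like and -4.94 in epithelium-like cells. The share of neuron-like cells with an Nkx2-1 UMI was 15.1% in the control and 11.2% in the mutant library, against the direction of its level. With 1 library per genotype, these differences were not tested.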

How the results depend on the processing

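Each genotype has 1 library, so no library could be left out. No paired analysis was possible because each group holds 1 library. Of the alternative epithelial levels, 98 moved by less than their counting interval, 20 moved further and 4 reversed. With either Epcam or Cdh1 required, the log2 ratio was -2.25 for Nkx2-1, 1.21 for Foxe1, -4.25 for Sftpc, -0.048 for Foxa2 and 1.85 for Hhex. In all cells of the epithelium-like cluster it was -2.70 for Nkx2-1, 1.18 for Foxe1, -4.31 for Sftpc and 0.068 for Hhex. With 2 UMIs of each gene it was -4.11 for Sftpc and, reversed, -0.91 for Hhex. In female-like cells it was 1.37 for Foxe1, -2.09 for Foxa2 and, reversed, -1.26 for Hhex. Nkx2-1, Pax8, Sftpc and Gcm2 had 0 UMIs in the 78 female-like mutant cells, so they have no ratio there. In the 132 female-like control cells they had 396, 70, 737 and 4 UMIs. Alternatives without a ratio are not in the counts above. Without Nkx2-1 cells it was -1.04 for Pax8, 1.95 for Foxe1, 0.32 for Pax9, 4.79 for Hhex and, reversed, 0.077 for Foxa2. There Hhex rests on 1 control UMI against 57 mutant UMIs, and Pax8 on 1 UMI in each library. Averaging over cells gave -2.74 for Nkx2-1 and 1.51 for Hhex. From 1000 genes upward Pax9 was 0.50, and without the highest Scrublet scores Hhex was 0.30. An alternative chosen after seeing the data, Epcam and Cdh1 cells inside the epithelium-like cluster, reversed Hhex to -0.24. The control group with Nkx2-1 and Sftpc was 6.97% with either epithelial gene and 10.4% after thinning. The group with Pax9, Foxe1 or Sox2 was 20.9% of control and 27.2% of mutant cells with either gene, 17.8% and 31.4% after thinning, and 15.3% and 30.7% from 2 UMIs. The mutant group with Nkx2-1 and Pax8 was 0% in female-like cells and after thinning, and that with Nkx2-1 and Sftpc 0% in female-like cells. The causes were not tested. The log2 shift of mutant over control was -0.05 by TMM and -0.06 by the median ratio. Each shift was subtracted from the ratios, so every ratio rose by that size. Foxn1, Gcm2 and mutant Pax8 rest on few UMIs, which limits their precision.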
